A study of Mus musculus with 6 samples.

Results

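Antigen processing for MHC class I and antigen presentation by MHC class II were followed through 10 genes in mouse intestinal stem cells that had or had not lost the Polycomb genes Ring1 and Rnf2. The 10 genes were taken by symbol from both deposited tables, with the RefSeq entry of highest mean where a symbol had several. They are 10 of 16821 symbols in the RingKO and WT table, and of 15916 in the Bcat_RingKO and Bcat table. The class I processing genes are Tap1, Tap2, Psmb8, Psmb9 and B2m, and the class II genes are H2-Aa, H2-Ab1, H2-Eb1, Cd74 and Ciita. The choice was made by gene function and place in the genome, with earlier results of these data known.

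All libraries came from Lgr5-GFP+ cells sorted from small-intestinal crypts of C57BL/6 mice that had received 3 tamoxifen injections and were taken 6 days later. RingKO mice (2 libraries) carried Lgr5Gfp-CreERT2, Ring1a-/- and Ring1bf/f, and WT mice (2 libraries) carried Lgr5Gfp-CreERT2 alone. Bcat_RingKO (1 library) carried Lgr5Gfp-CreERT2-Ctnnb1-ex3 with Ring1a-/- and Ring1bf/f, and Bcat (1 library) carried Lgr5Gfp-CreERT2-Ctnnb1-ex3 without them. Every group therefore held the tamoxifen-activated Cre, which is driven from Lgr5 and acts in Lgr5-expressing cells and, through inheritance of the recombined allele, in their descendants. Ring1a (symbol Ring1) and Ring1b (symbol Rnf2) are the alternative catalytic subunits of the Polycomb complex PRC1, which ubiquitylates histone H2A at silent genes. The labels do not say whether the libraries of a genotype came from separate animals, so a p-value here speaks of the spread between the libraries sequenced, part or all of which may be technical.

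MHC class I molecules show peptides from inside the cell to cytotoxic T cells. The immunoproteasome, whose catalytic subunits Psmb8, Psmb9 and Psmb10 replace the constitutive Psmb5, Psmb6 and Psmb7, cuts proteins into peptides, and the Tap1 and Tap2 heterodimer pumps them into the endoplasmic reticulum, where class I heavy chains pair with beta-2 microglobulin (B2m). MHC class II molecules show peptides from endosomes to helper T cells, and their alpha and beta chains travel with the invariant chain Cd74. Ciita is the transactivator that switches class II genes on, Nlrc5 is its class I counterpart, and interferon gamma induces both pathways. Crypt epithelial cells, Lgr5+ stem cells among them, are known to express class II genes as well as class I genes.

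Class I and class II promoters share a module of short boxes to which the RFX and NF-Y complexes bind and which Ciita and Nlrc5 read. RefSeq promoter windows (GRCm38.p6) were matched by symbol for 6 of the 10 genes (Tap1, Psmb8, Psmb9, B2m, H2-Aa and H2-Eb1). They are shown here because the members differ in which of the letters searched below they hold. Only exact matches were marked, so a box that departs from these letters is not seen. Capitals mark matches to the Y box CTGATTGG, to a core of the X1 box AACNGATG and to an interferon response element core GAAANNGAA, all searched on both strands, and none of these matches overlaps another. Each line below gives bases ending just before the annotated start on the strand of the gene, except the last, which gives the whole stretch between the divergent starts of Psmb9 and Tap1 on the Tap1 strand.
H2-Aa, chr17:34287824-34287973, minus strand: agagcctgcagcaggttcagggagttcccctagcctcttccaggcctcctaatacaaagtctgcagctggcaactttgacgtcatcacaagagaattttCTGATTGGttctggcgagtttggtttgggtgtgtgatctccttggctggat
H2-Eb1, chr17:34305717-34305866, plus strand: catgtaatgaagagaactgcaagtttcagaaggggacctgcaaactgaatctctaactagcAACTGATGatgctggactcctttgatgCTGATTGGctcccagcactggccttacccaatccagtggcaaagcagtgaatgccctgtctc
B2m, chr2:122147537-122147686, plus strand: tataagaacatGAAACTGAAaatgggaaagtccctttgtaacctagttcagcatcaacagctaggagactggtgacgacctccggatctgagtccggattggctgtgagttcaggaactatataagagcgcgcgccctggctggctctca
Psmb9 to Tap1, chr17:34187331-34187555, plus strand: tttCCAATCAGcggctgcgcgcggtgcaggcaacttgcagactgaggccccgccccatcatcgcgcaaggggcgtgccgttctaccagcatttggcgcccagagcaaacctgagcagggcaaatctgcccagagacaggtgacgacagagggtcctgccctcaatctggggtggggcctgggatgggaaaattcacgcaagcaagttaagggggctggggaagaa

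Counting the last base before the start as -1, the Y box of H2-Aa lay at -51 to -44. In H2-Eb1 the X1 box core lay at -89 to -82 and the Y box at -62 to -55. The stretch between Psmb9 and Tap1 is 225 bases long, and its Y box, in the opposite orientation, lay at -222 to -215 from the Tap1 start, next to the Psmb9 start. B2m held the interferon response element core at -139 to -131. In all, 4 of the 6 windows of 250 bases held the Y box, with 1 site shared by Tap1 and Psmb9, against 3.83% of 32851 promoter windows of the same length. The X1 box core was in 1 of the 6, against 1.98% of all windows, and the interferon response element core was in 1 of the 6, against 7.13%. The Psmb8 window held none of these letters. A match describes the sequence and says nothing of binding, and the lack of a match does not show that a box is absent.

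The targeted genes were examined first. Ring1 had 9 and 11 reads in the RingKO libraries, against 484 and 363 in the WT libraries. It fell in the authors' deposited table (adjusted p = 1.26e-26). In the Bcat table Ring1 had 43 reads in Bcat_RingKO and 24 in Bcat, a ratio of 0.358 (95% counting interval 0.213 to 0.617) after the authors' scaling. Ring1 was thus lower in Bcat_RingKO than in Bcat, with reads still present. Its deposited fold for RingKO over WT was 0.0555, a larger drop than in the Bcat pair. Rnf2 had 142 and 103 reads in RingKO and 220 and 246 in WT, with edgeR's log2 fold change at 0.34 ± 0.19 (SE) and a Benjamini-Hochberg adjusted p of 0.304 in its quasi-likelihood test. In the Bcat table Rnf2 had 546 reads in Bcat_RingKO and 78 in Bcat, a ratio of 1.40 (95% counting interval 1.10 to 1.80). Counts over the whole transcript do not check the floxed Ring1b or the Ctnnb1-ex3 allele. Ring-deficient below therefore means the genotype given by the labels.

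Values below are normalized reads, the read count plus 1 divided by the size factor of the library, which is the unit that the authors deposited. The WT and RingKO means were separated into reads of single libraries, called A and B in arbitrary order. Reads over all entries came to 2911422 and 2651201 in RingKO, 6753789 and 6294932 in WT, 4470853 in Bcat_RingKO and 922153 in Bcat. At means of 50 or more, log2 ratios between libraries of 1 genotype had an SD of 0.45 in RingKO and 0.24 in WT. A gene is said to have risen or fallen only where the authors' deposited table has an adjusted p below 0.05. A log2 fold change with ± is edgeR's estimate and its SE, from 2 libraries per genotype, and a positive value is higher in RingKO. The authors' scaling and that of edgeR differ: edgeR's log2 fold changes lie 0.18 above the deposited ones at the median, and for entries with a mean of at least 50 the median of all was -0.03 with edgeR and -0.21 in the authors' deposited table.

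Both RingKO libraries were higher than both WT libraries for 6 of the 10 genes. The same held for 18.0% of all entries and 14.5% of those with a mean of at least 50. These 6 genes lie close together, at places 11 to 17 in gene order from Ring1. RingKO carries Ring1a-/- and WT does not, so loss of PRC1 and a local effect of that allele cannot be told apart. A difference between RingKO and WT was called for 1 of these 6 genes in the authors' deposited table. Tap2, which encodes a chain of the peptide transporter, rose. The class II chain genes H2-Aa, H2-Ab1 and H2-Eb1, Psmb8 and Tap1 were also higher in both RingKO libraries than in either WT library. Psmb9, B2m and Cd74 had log2 fold changes between -0.02 and 0.13. The authors' test called 1 of the 10 genes, against 4.9% of all 18376 entries, and 3.14% in the higher and 1.76% in the lower direction. edgeR's quasi-likelihood test called Tap2, Psmb8 and H2-Aa, 3 of the 9 genes it tested, against 12.9% of 11170 entries in both directions and 9.91% in the higher one. DESeq2 called those 3 and H2-Ab1, 4 genes in all, against 8.77% of its entries in both directions and 6.88% in the higher one, and limma-trend called 3, against 11.2% and 8.61%. In bulk RNA, fewer cells of a type and less RNA per cell cannot be told apart.

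**Figure D1:**
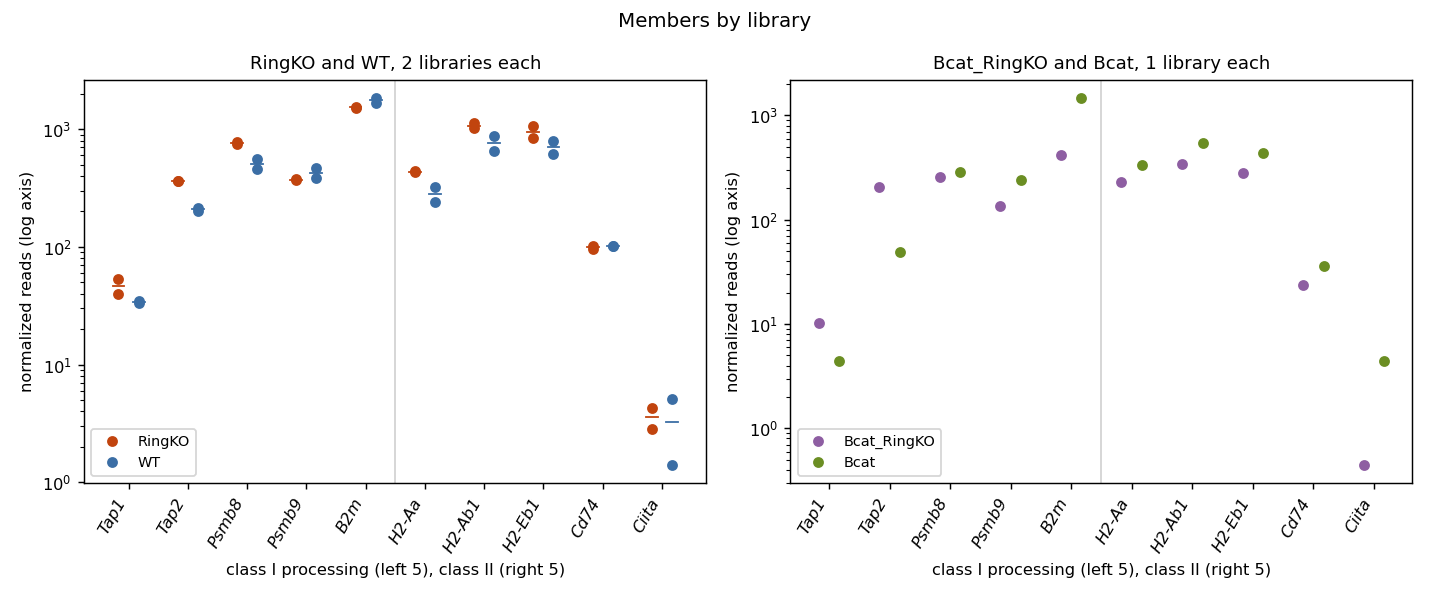
Normalized reads of the 10 genes in each library, on log axes, with RingKO and WT on the left (points: libraries, bars: means of 2) and Bcat_RingKO and Bcat on the right (1 library each). Tap2 is higher in the Ring-deficient libraries on both sides, the class II chains are higher on the left and lower on the right, and B2m is the most abundant in reads in every library.

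Of the transporter genes, Tap2 had 359.5 and 362 normalized reads in the RingKO libraries, against 213 and 203 in the WT libraries. The libraries of each genotype lay close to each other and the groups did not overlap. Its log2 fold change was 0.98 ± 0.14, with an adjusted p of 0.00349 by edgeR's quasi-likelihood test (Benjamini-Hochberg) and of 0.0289 in the authors' deposited table. With WT library A or B left out, the adjusted p of edgeR's test was 0.053 or 0.0754. The partner chain Tap1 was far less abundant, with 39.8 and 53.1 normalized reads in RingKO and 33.2 and 34.5 in WT. Its log2 fold change of 0.62 ± 0.29 did not pass edgeR's test (adjusted p = 0.227). In reads of the same library, Tap2 exceeded Tap1 by a ratio of 9.33 and 6.97 in RingKO and 6.51 and 5.98 in WT, and the counting intervals of the 4 libraries overlapped.

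The immunoproteasome subunits parted. Psmb8, the chymotrypsin-like replacement of Psmb5, had 749 and 784 normalized reads in the RingKO libraries, against 559.9 and 457 in the WT libraries. The means were 766 ± 24.9 in RingKO and 509 ± 72.5 in WT (SD, n = 2 each), the groups did not overlap, and the log2 fold change was 0.77 ± 0.16. The adjusted p was 0.0158 by edgeR's quasi-likelihood test and 0.0984 in the authors' deposited table. Psmb9, the replacement of Psmb6, had 369 and 375 normalized reads in RingKO, against 467 and 381 in WT. Its log2 fold change was -0.01 ± 0.16 (adjusted p = 0.978, edgeR's quasi-likelihood test). The remaining immunosubunit, Psmb10, had 766 and 974 reads in RingKO and 2268 and 1695 in WT, a log2 fold change of 0.10 ± 0.19 (adjusted p = 0.788, edgeR). All 7 constitutive beta subunits tested, Psmb1 to Psmb7, were short of both thresholds, and their median log2 fold change was 0.04. At an unadjusted p under 0.05, the authors' deposited table held 0 of these 7, and edgeR and DESeq2 called 0.

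Ratios of reads within a library do not depend on any scaling between libraries. Psmb8 over Psmb9 was 2.03 and 2.10 in the RingKO libraries, against 1.20 and 1.20 in the WT libraries. In the Bcat table it was 1.88 in Bcat_RingKO and 1.19 in Bcat. The 3 Ring-deficient libraries thus lay between 1.88 and 2.10, and the other 3 between 1.19 and 1.20. The 95% counting intervals of the RingKO libraries began at 1.75 and 1.80 and those of the WT libraries ended at 1.33 and 1.35. In Bcat_RingKO the interval began at 1.63, above the ends in WT, and the Bcat interval of 0.910 to 1.55 ended below it. This ratio was picked after its values had been seen, so no test is given. Psmb8 over its counterpart Psmb5 was 0.652 and 0.796 in RingKO and 0.408 and 0.348 in WT, and 1.02 in Bcat_RingKO and 0.611 in Bcat. Psmb9 over its counterpart Psmb6 was 0.363 and 0.404 in RingKO and 0.431 and 0.434 in WT, and 0.426 in Bcat_RingKO and 0.399 in Bcat, with overlapping intervals in all 6 libraries.

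**Figure D2:**
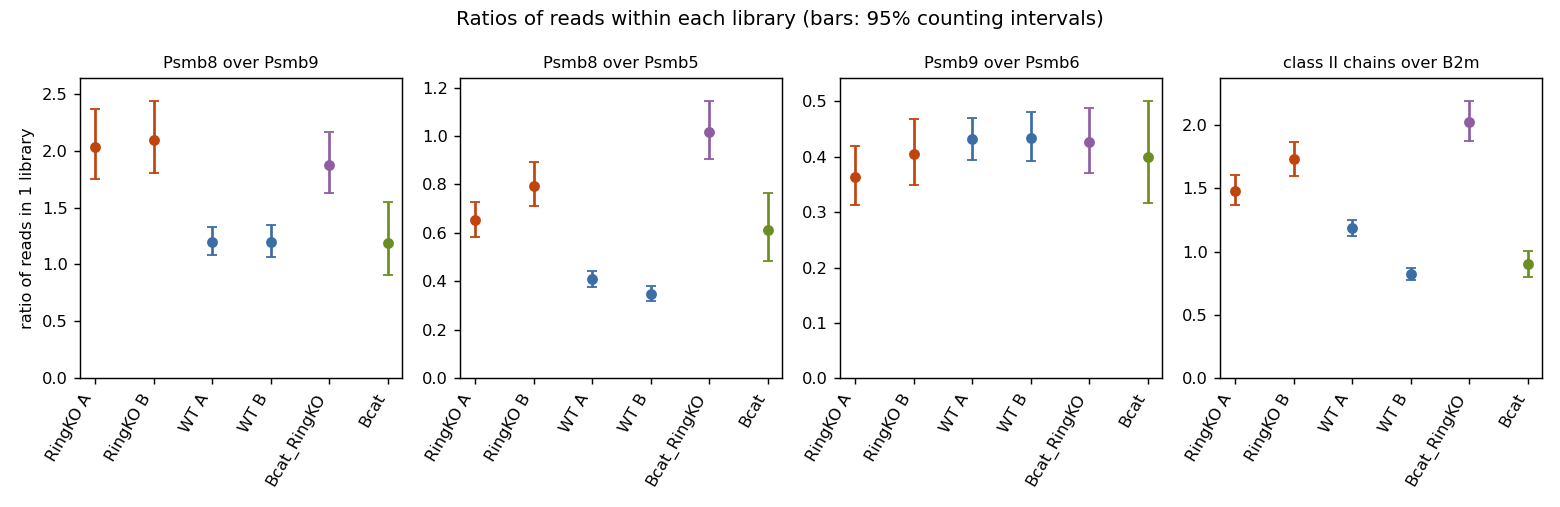
Ratios of reads of named genes within each of the 6 libraries, with 95% counting intervals as bars, where the class II chains are the summed reads of H2-Aa, H2-Ab1 and H2-Eb1. Psmb8 over Psmb9 is between 1.88 and 2.10 in the 3 Ring-deficient libraries and between 1.19 and 1.20 in the others, while Psmb9 over Psmb6 stays between 0.363 and 0.434.

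B2m, the light chain of class I molecules, was the most abundant of the 10 genes per length. It had 1549 and 1514 normalized reads in the RingKO libraries, against 1679.7 and 1836 in the WT libraries. The RingKO libraries were the lower ones on the authors' scaling, by a deposited log2 fold of -0.20 in the authors' deposited table (adjusted p = 0.972). edgeR's log2 fold change was -0.02 ± 0.14. On the authors' scaling Psmb9, B2m and Cd74 made up the 3 of 10 genes whose RingKO libraries were both lower than the WT libraries, against 33.6% of all entries and 51.9% of those with a mean of at least 50. The other direction held for 6 of 10, against 18.0% of all entries and 14.5% of those with a mean of at least 50. For Cd74 that separation was lost with the read that the authors added to each count.

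The class II chains had log2 fold changes close to each other. H2-Aa, the alpha chain of the I-A molecule, had 431 and 438 normalized reads in the RingKO libraries, against 320.2 and 239 in the WT libraries. The means were 434 ± 5.25 in RingKO and 279.6 ± 57.5 in WT (SD, n = 2 each), both RingKO libraries were above both WT libraries, and the log2 fold change was 0.81 ± 0.18. The adjusted p was 0.0223 by edgeR's quasi-likelihood test and 0.113 in the authors' deposited table. H2-Ab1, its beta chain, had 1026 and 1119 normalized reads in RingKO, against 877 and 658 in WT. Its log2 fold change of 0.66 ± 0.18 had an adjusted p of 0.0507 by edgeR's quasi-likelihood test and 0.023 by DESeq2. H2-Eb1, the beta chain of the I-E molecule, had 841 and 1061 normalized reads in RingKO, against 798 and 615 in WT. RingKO library A stood only slightly above WT library A, and the log2 fold change of 0.61 ± 0.20 did not pass edgeR's test (adjusted p = 0.0879). C57BL/6 mice lack a working I-E alpha chain gene, so this strain is known not to display I-E.

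The WT libraries themselves differed in the class II chains, with summed normalized reads of 1995 in library A and 1512 in library B, against 2298 and 2618 in the RingKO libraries. Leaving out WT library B raised the adjusted p of edgeR's test to 0.287 for H2-Aa and to 0.307 for Psmb8. Without WT library A it was 0.044 for H2-Aa and 0.0854 for Psmb8. With any 1 of the 4 libraries left out the log2 fold changes of Tap2, Psmb8, H2-Aa, H2-Ab1 and H2-Eb1 remained positive, the lowest being 0.92, 0.62, 0.60, 0.45 and 0.39. Summed over the 3 chains and divided by B2m reads of the same library, class II stood at 1.48 and 1.73 in RingKO and at 1.19 and 0.823 in WT.

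The invariant chain and the transactivator gave fewer reads than the chains. Cd74 had 96.6 and 102 normalized reads in the RingKO libraries, against 102 and 101 in the WT libraries, and its log2 fold change was 0.13 ± 0.18 (adjusted p = 0.687, edgeR's quasi-likelihood test). In reads of the same library, Cd74 over H2-Ab1 was 0.0929 and 0.0900 in RingKO, against 0.116 and 0.153 in WT. Ciita had 1 and 2 reads in RingKO and 7 and 1 in WT. Over each group these are 3 reads in RingKO and 8 in WT, a scaled ratio of 0.799 with a 95% counting interval of 0.137 to 3.33, and a difference in Ciita was not detectable at this depth. Ciita was filtered out before edgeR's test. RefSeq holds 2 curated transcripts of Cd74, of which the table lists 1, and 5 of Ciita, of which it lists 2. How reads shared between transcripts were counted is not given in the sources used here, so the levels of both genes, and of Tap1 with 1 of 2 transcripts listed, are uncertain.

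Per kilobase of transcript, the order of levels in RingKO was B2m at 1780.4 normalized reads, H2-Ab1 at 885, H2-Eb1 at 569.9, Psmb8 at 471, H2-Aa at 385, Psmb9 at 275, Tap2 at 105, Cd74 at 70.4, Tap1 at 15.7 and Ciita at 0.904. In WT the same quantity was 2044 for B2m, 633 for H2-Ab1, 423 for H2-Eb1, 314 for Psmb9, 312 for Psmb8, 248 for H2-Aa, 72.2 for Cd74, 60.4 for Tap2, 11.5 for Tap1 and 0.825 for Ciita. Psmb8 and Psmb9 stood side by side in WT and apart in RingKO. Tap2 lay above Cd74 in RingKO and below it in WT.

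Taken as classes, the median log2 fold change was 0.62 over the 5 class I processing genes and 0.64 over the 4 class II genes that edgeR tested. The class I processing genes ranged from -0.02 to 0.98 and the class II genes from 0.13 to 0.81, so the spread within a class exceeded the distance between them. These medians stand beside -0.03 over all entries with a mean of at least 50. Summed normalized reads of class I processing genes were 3066 and 3087 in RingKO, against 2952 and 2912 in WT, and those of class II genes were 2397 and 2724 in RingKO, against 2103 and 1615 in WT.

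**Figure D3:**
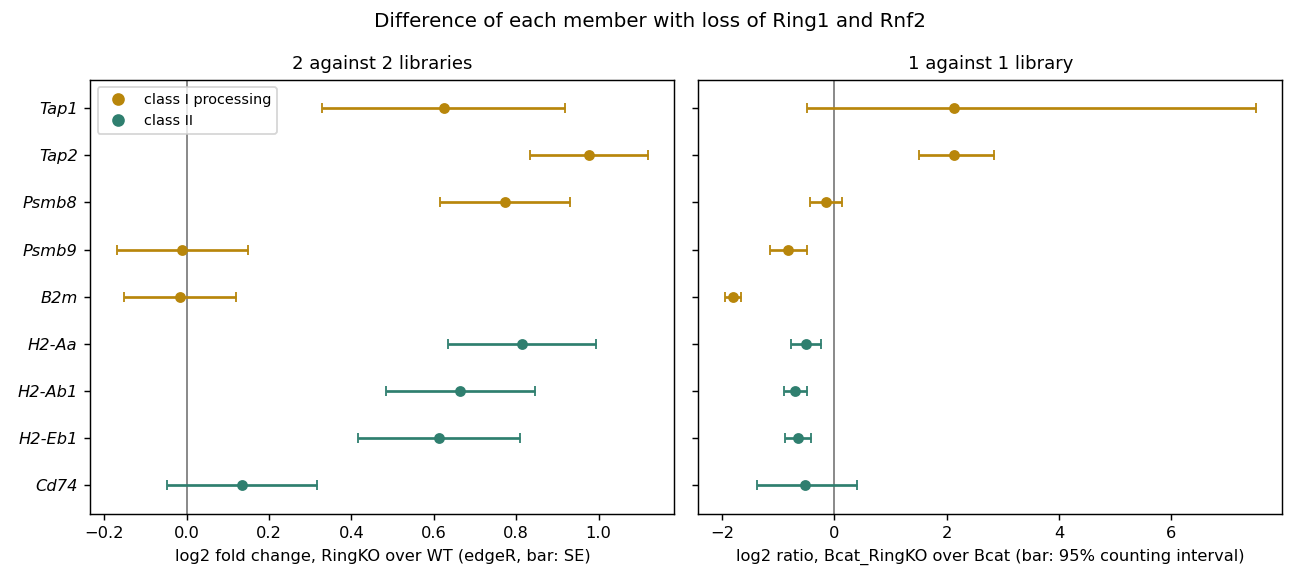
Log2 fold change of each gene for RingKO over WT with edgeR's SE (left) and log2 ratio for Bcat_RingKO over Bcat with 95% counting intervals (right), where Ciita could be placed in neither panel. On the left Tap2 is highest at 0.98 and Psmb9 and B2m sit near 0, and on the right only Tap2 has an interval wholly above 0.

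In cells with the Ctnnb1-ex3 allele, a beta-catenin allele that loses the exon needed for its degradation, 1 library per genotype was sequenced. There is no replicate check, the tables were scaled separately, and intervals cover counting error only. A fold past 2 counts as called, which held for 3 of the 9 genes with a ratio, against 41.1% of all 17076 entries and 29.8% of entries with a mean of at least 50. Over all entries 21.0% were higher and 20.1% lower by that limit. These shares were taken from the authors' deposited folds, which add a read to each count, while the 9 ratios are of reads without it. On the authors' measure Tap2 stood at 4.18, Tap1 at 2.3, B2m at 0.286 and Ciita, left out of the 9, at 0.1. Tap2 had 459 reads in Bcat_RingKO and 21 in Bcat, a scaled ratio of 4.37 (95% counting interval 2.83 to 7.13). Tap1 had 22 reads in Bcat_RingKO and 1 in Bcat, a ratio of 4.40 with an interval of 0.711 to 182, and 2.3 in the authors' deposited table, which adds a read to each count. Tap2 was therefore higher in the Ring-deficient libraries of both comparisons, and for Tap1 a difference in this pair was not detectable at this depth. A ratio above 2 was found for 21.9% of entries with a mean of at least 50.

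B2m had 937 reads in Bcat_RingKO and 655 in Bcat, which after scaling was a ratio of 0.286 (0.259 to 0.317). A ratio under 0.5 occurred in 7.9% of entries with a mean of at least 50. Psmb9 had a ratio of 0.566 (0.453 to 0.713) and Psmb8 of 0.896 (0.738 to 1.09). The 7 constitutive beta subunits lay between 0.466 and 0.598, so Psmb9 fell within their range and Psmb8 outside it. The class II chains were all lower in Bcat_RingKO. H2-Aa had 232 normalized reads in Bcat_RingKO and 333 in Bcat, a ratio of 0.700 (0.582 to 0.846). H2-Ab1 had 339 in Bcat_RingKO and 550.1 in Bcat, a ratio of 0.618 (0.534 to 0.717), and H2-Eb1 had 279 in Bcat_RingKO and 441 in Bcat, a ratio of 0.636 (0.541 to 0.750). Cd74 had 52 reads in Bcat_RingKO and 15 in Bcat, with a ratio of 0.693 and an interval of 0.384 to 1.33. Ciita had 0 reads in Bcat_RingKO and 1 in Bcat, and no ratio of reads is given.

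The direction of the class II chains thus differed between the pairs, higher in both RingKO libraries and lower in Bcat_RingKO. A ratio below 1 in the Bcat pair was not particular to them, since the 7 constitutive beta subunits lay at 0.466 to 0.598. For entries with a mean of at least 50 the 10th percentile of the fold was 0.542, the 90th 2.92 and the median log2 fold 0.23. Relative to B2m in the same library the chains were higher in the Ring-deficient libraries of both pairs, at 2.03 in Bcat_RingKO and 0.899 in Bcat. In the Bcat pair the chains were themselves lower, and B2m was lower still, with a ratio of 0.286. The ratio of H2-Ab1 to H2-Aa also differed between the pairs. H2-Ab1 over H2-Aa was 1.46 in Bcat_RingKO and 1.66 in Bcat, against 2.39 and 2.56 in RingKO and 2.74 and 2.76 in WT. H2-Eb1 over H2-Ab1 stayed between 0.800 and 0.949 in all 6 libraries. Such a difference between the pairs was not particular to class II. Tap2 over Tap1 was 20.9 in Bcat_RingKO and 21.0 in Bcat, the latter from 1 Tap1 read, against 5.98 to 9.33 in RingKO and WT. The part of the Ctnnb1-ex3 allele in these differences was not tested.

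Of the other class I pathway genes, 32 were in the RingKO and WT table, and 3 of them rose while 1 fell, against 3.14% and 1.76% of all entries. H2-Bl, a class I gene first described in the blastocyst, had 137 and 208 reads in RingKO and 31 and 21 in WT, a log2 fold change of 4.01 ± 0.30. H2-Q10, which encodes a secreted class I molecule known from liver, had 361 and 342 reads in RingKO and 106 and 93 in WT, a log2 fold change of 3.09 ± 0.15. Cd1d1, which presents lipids to natural killer T cells, changed by 1.95 ± 0.28. In the Bcat pair, with 1 library per genotype, H2-Bl had 291 reads in Bcat_RingKO and 3 in Bcat, a ratio of 19.4 (6.57 to 94.6). H2-Q10 had 458 and 13 reads there, a ratio of 7.05 (4.08 to 13.3). Cd1d1 had 160 and 6, a ratio of 5.33 (2.40 to 14.8). The brackets hold 95% counting intervals, and 21.0% of all entries were higher by more than 2-fold in that pair. H2-T23, which encodes the Qa-1 ligand of natural killer receptors, fell, with a log2 fold change of -0.58 ± 0.18 that did not pass edgeR's test (adjusted p = 0.0831). Class I heavy chain genes are near-identical copies of each other, and reads may be split among them, so their single values are uncertain.

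The classical heavy chains were higher without passing the authors' test. H2-K1 had 3550 and 3453 reads in RingKO and 5128 and 5045 in WT, a log2 fold change of 0.73 ± 0.15 with an adjusted p of 0.0148 by edgeR's quasi-likelihood test and 0.0645 in the authors' deposited table. H2-D1 had a log2 fold change of 0.66 ± 0.16 (adjusted p = 0.0333, edgeR). Both were lower in Bcat_RingKO than in Bcat, with ratios of 0.628 (0.573 to 0.690) for H2-K1 and 0.792 (0.678 to 0.929) for H2-D1. Nlrc5, the class I transactivator, had 29 and 36 reads in RingKO and 35 and 16 in WT. Its log2 fold change was 1.63 ± 0.40, with an adjusted p of 0.034 by edgeR's quasi-likelihood test and 0.104 in the authors' deposited table. In the Bcat table Nlrc5 had 124 reads in Bcat_RingKO and 5 in Bcat, a ratio of 4.96. The peptide-loading chaperone tapasin (Tapbp) had 13 reads in each RingKO library and 29 and 31 in WT, a log2 fold change of 0.06 ± 0.36. edgeR called 7 of the 26 genes of this list that it tested, all higher, against 9.91% of all entries it tested, and the list's median log2 fold change was 0.10.

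Of the other class II pathway genes, 21 were in the table and 0 were called by the authors' test, against 4.9% of all entries. At an unadjusted p under 0.05 the authors' deposited table held 1, and edgeR and DESeq2 called 1 each. The peptide exchange factor H2-DM is made of 2 chains. H2-DMa had 206 and 253 reads in RingKO and 413 and 336 in WT, a log2 fold change of 0.57 ± 0.18 (adjusted p = 0.0754, edgeR's quasi-likelihood test), and H2-DMb1 had a log2 fold change of 0.42 ± 0.18 (adjusted p = 0.193, edgeR). Ctss, the protease that trims the invariant chain in professional antigen-presenting cells, had 0 and 2 reads in RingKO and 0 and 0 in WT. The related protease gene Ctsl, named after its values were seen, was the one called by edgeR at 1.27 ± 0.22. The list's median log2 fold change over 10 tested genes was 0.06.

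Interferon genes were read next, as inducers of both pathways. Of 13 genes of interferon gamma signalling in the table, 1 fell, the repressor Irf2, at -0.68 ± 0.19, and none rose. Of all entries 1.76% fell and 3.14% rose. Irf2 did not pass edgeR's test (adjusted p = 0.0594). Of these genes edgeR called 1 of the 12 it tested, as higher, against 9.91% of all entries it tested. This was Socs3, named after its values were seen, at 1.20 ± 0.26, which the authors' test did not call. The transcription factor Irf1 had 2 and 7 reads in RingKO and 24 and 20 in WT, where the libraries were deeper. Its log2 fold change of -0.998 ± 0.58 passed neither edgeR's test (adjusted p = 0.328) nor the authors' test (adjusted p = 0.952). Of 21 interferon-induced genes, 1 rose, against 3.14% of all entries, the virus-tethering factor Bst2, at 1.45 ± 0.20. edgeR called 4 of the 14 it tested, all higher, against 9.91% of all entries it tested. These were Bst2 and, named after their values were seen, Igtp, Irgm1 and Isg15. The median log2 fold change of the 14 tested genes was 0.87. Summed normalized reads of the interferon-induced genes without the added read were 1106 and 1547 in RingKO and 779 and 772 in WT, and 965 in Bcat_RingKO and 1398 in Bcat.

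Markers of other cells were read beside the class II genes, whose summed level on the same scale was 2390 and 2717 in RingKO, 2100 and 1612 in WT, 872 in Bcat_RingKO and 1353 in Bcat. Leukocyte markers summed to 44.0 and 56.0 in RingKO and to 91.4 and 74.7 in WT, and to 114 in Bcat_RingKO and 172 in Bcat. Rac2, named after its values were seen, had 14 and 12 reads in RingKO and 77 and 69 in WT, and without it the remaining 7 markers summed to 24.2 and 38.8 in RingKO and 42.2 and 26.1 in WT, with overlapping groups. Ptprc, the pan-leukocyte gene, had 0 reads in both RingKO libraries and in WT library B, and 2 in WT library A. Markers of macrophages and dendritic cells summed to 73.9 and 61.7 in RingKO and 68.4 and 45.8 in WT. In the Bcat pair they summed to 80.5 in Bcat_RingKO and 152 in Bcat. B cell markers summed to between 11.4 and 37.3 in the 4 RingKO and WT libraries, and to 19.2 in Bcat_RingKO and 20.1 in Bcat. The part of these 3 lists in the class II differences was not tested. None of the 26 genes of these 3 lists in the table was called by the authors' test, against 4.9% of all entries. At an unadjusted p under 0.05 the authors' deposited table held 1 of them, edgeR called 1, the leukocyte marker Rac2, as lower, and DESeq2 called 0.

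Paneth cell markers had the same order of libraries as the class II chains. Of 8 markers, 7 rose, against 3.14% of all entries. Among them were Defa24 at 1.90 ± 0.23, Itln1 at 1.81 ± 0.24, Defa3 at 1.90 ± 0.26 and Ang4 at 2.60 ± 0.39. Their summed level was 41459 and 52275 in RingKO and 18847 and 12598 in WT, and 2669 in Bcat_RingKO and 9778 in Bcat. Within each table the libraries stood in the same order for these markers as for the class II sum. The interferon-induced genes had that order too, with nearly equal WT sums of 779 and 772. So did the class I processing genes, at 3059 and 3080 in RingKO, 2949 and 2908 in WT, 1024 in Bcat_RingKO and 2037 in Bcat. Stem cell markers summed to 26796 and 12764 in RingKO and 33974 and 39712 in WT, the reverse order, and to 7134 in Bcat_RingKO and 9702 in Bcat, the same order as class II. How many of all entries had the order of the class II sum was not counted. In the Bcat table the constitutive beta subunits had it too, at 2076 in Bcat_RingKO and 3976 in Bcat. The interferon gamma signalling genes, at 2545 in Bcat_RingKO and 2039 in Bcat, did not. The part of these lists in the class II differences was not tested. Of 10 enterocyte markers, Fabp2, Mep1a and Sis fell and Anpep rose, against 1.76% and 3.14% of all entries. Among 8 stem cell markers Ascl2 and Rgmb fell, and Lgr5 itself had 461 and 222 reads in RingKO and 942 and 922 in WT, a log2 fold change of -0.19 ± 0.27.

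**Figure D4:**
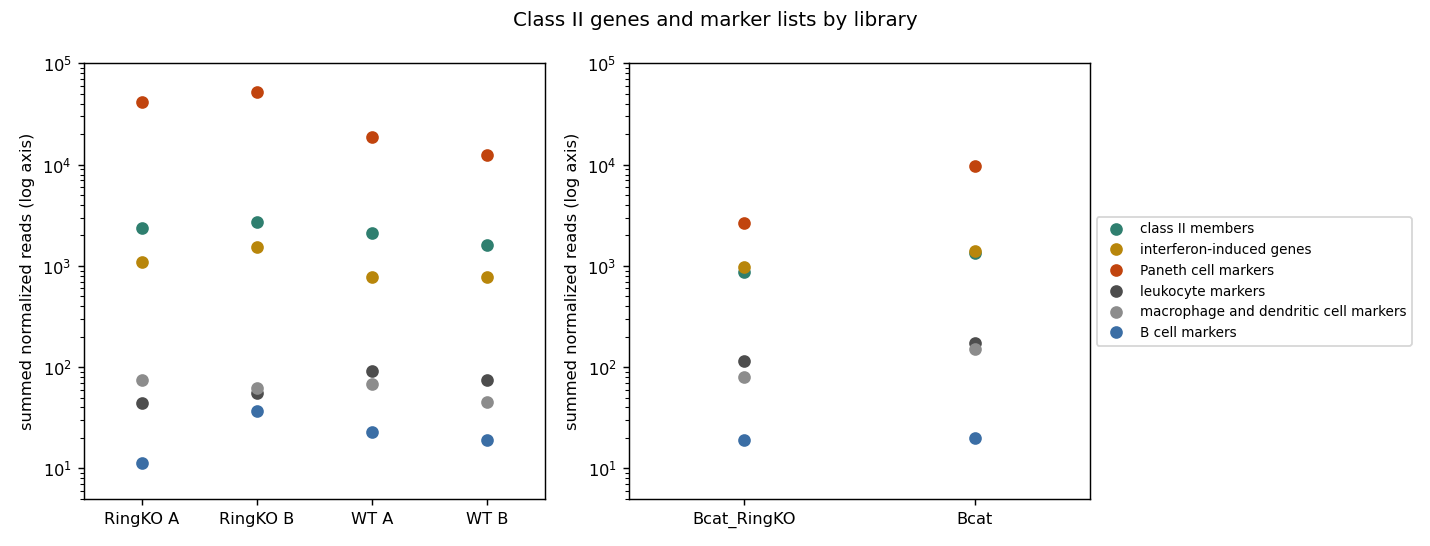
Summed normalized reads, on log axes, of the class II genes, the interferon-induced genes and 4 marker lists in each library. Within each table the Paneth cell markers and the interferon-induced genes have the same order of libraries as the class II genes, and the 3 lists of immune cell markers stay between 11.4 and 172.

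The class I processing and class II genes other than B2m, Cd74 and Ciita lie in the MHC on mouse chromosome 17, near Ring1. Counted in protein-coding genes from Ring1 in the RefSeq order, Psmb9 is at place 10, Tap1 at 11, Psmb8 at 12, Tap2 at 13, H2-Ab1 at 15, H2-Aa at 16 and H2-Eb1 at 17. H2-K1 is the next gene on the other side. Of the 30 neighbours on each side, 54 were in the table, of which 3 rose (Angptl4, Kank3 and Tap2) and 2 fell (Btnl2 and Btnl1). That is 5.56% higher, against 3.14% of all entries. edgeR called 7 of 46 tested neighbours higher, 3 of them the members Tap2, Psmb8 and H2-Aa, against 9.91% of all entries it tested. It called 2 lower, and the median log2 fold change of the 46 was 0.10. The genes next to Ring1 on the side of the members, H2-Ke6 at 0.28 ± 0.15 and Slc39a7 at -0.04 ± 0.18, did not pass either test. Beyond the class II genes, the butyrophilin-like genes Btnl2 at place 19 and Btnl1 at place 20 fell, with log2 fold changes of -1.96 ± 0.32 and -0.96 ± 0.16.

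**Figure D5:**
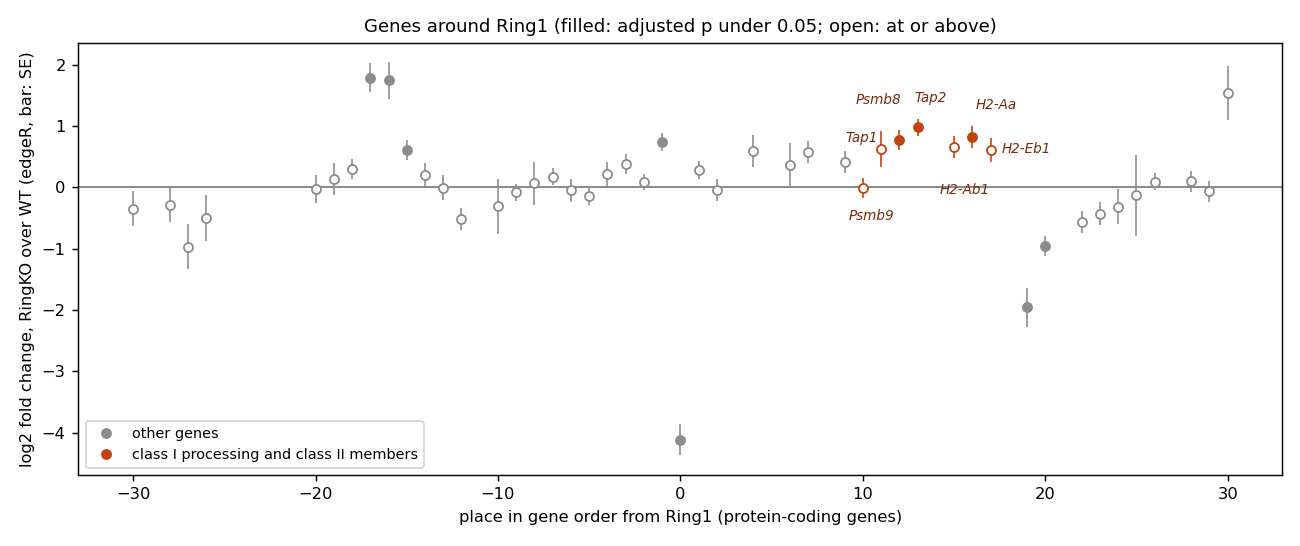
Log2 fold change for RingKO over WT (edgeR, bars: SE) of protein-coding genes by place in gene order from Ring1, with genes passing edgeR's test filled. Places 11 to 17 hold 6 of the class I processing and class II genes, at 0.61 to 0.98, Psmb9 at place 10 is at -0.01, and Ring1 is at -4.12.

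Reads were not stated to be counted by strand, and 7 of the 10 genes overlap a gene on the other strand in the GENCODE annotation of GRCm38, so reads from a gene and its partner cannot be told apart. Tap2 and Psmb8, the class I processing genes called by edgeR, both overlap the antisense gene Gm20496, and Tap2 also overlaps Gm15821. Psmb9 and Tap1 overlap each other in that annotation, although their RefSeq starts leave 225 bases between them, B2m overlaps Patl2, Ciita overlaps Dexi, and H2-Eb1 overlaps Gm20513. H2-Aa, H2-Ab1 and Cd74 have no gene on the other strand there.

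The entries whose profile over the 4 libraries was most like the mean of the class II chains and Cd74 were Rnasek, Efna3, Nt5c3b, Rps28 and Atg16l2, by Euclidean distance of centred log2 normalized reads. Their distances ran from 0.055 to 0.0805, with 4 points and no test. The averaged genes themselves lay farther from this mean, H2-Ab1 at 0.135, H2-Eb1 at 0.153, H2-Aa at 0.290 and Cd74 at 0.473. Of 7893 entries compared, 237 were nearer than H2-Aa and 1209 nearer than Cd74, so the mean describes those genes poorly. H2-K1 and the interferon-induced genes were not among the 5 nearest entries.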

How the data were processed

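The deposited values are normalized coverage (signal) per RefSeq entry, which the authors gave as group means for RingKO and WT and as 1 value per library for Bcat_RingKO and Bcat. The authors also deposited a fold (ratio), its log2 value, and p-values with adjusted p-values for RingKO against WT, and per the submitters' processing notes TopHat, DESeq and the mouse build mm9 were used. Neither annotation nor read counter is given in the sources used here, nor whether strand was used.

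Each signal equals, within rounding, whole reads plus 1 over the size factor of its library (0.704 and 0.696 in RingKO, 1.56 and 1.42 in WT, 2.24 in Bcat_RingKO and 0.447 in Bcat). Whole reads of the single libraries were recovered from the group means. The solution was unique for all 18376 RingKO means and for 18361 WT means, and the most balanced pair was taken for 15, all at means of 10922 or more. On simulated means 100% of pairs were right.

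The main test was the authors' deposited adjusted p under 0.05. Alternatives on recovered reads were edgeR 4.0.16 (quasi-likelihood, TMM, filterByExpr), DESeq2 1.42.0 and limma-trend 3.58.1 with a pseudocount of 1, each with Benjamini-Hochberg adjustment over all entries tested. On simulated RingKO and WT counts the tests were checked against known changes. The Bcat pair got a ratio of scaled reads with an exact conditional (Clopper-Pearson) 95% interval. Intervals and floors cover counting error only, since reads are not independent molecules.

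Members and the 16 gene lists (187 genes) were chosen with earlier results of these data known. Named are the 10 members, Ring1, Rnf2, 10 pathway genes taken in any case, up to 4 called genes per other list by smallest authors' adjusted p, called neighbours of Ring1 and the 5 most similar entries. A gene that the rule names is not reported here. Names outside the rule carry a remark, and coordinates are those of the RefSeq promoter table only. Accessions matched the reference annotation in 98.7% of entries.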

Additional observations from a re-analysis of the deposited data

Results flagged for a closer look

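The class II chains lay on opposite sides in the 2 comparisons, with no call by the authors' test in the first and no ratio past 2-fold in the second. All of H2-Aa, H2-Ab1 and H2-Eb1 were higher in both RingKO libraries than in both WT libraries, while the Bcat_RingKO over Bcat ratio was 0.700 for H2-Aa, 0.618 for H2-Ab1 and 0.636 for H2-Eb1. In the Bcat pair the 7 constitutive beta subunits were lower still, at 0.466 to 0.598. The difference between the comparisons was not tested, since the Bcat pair has 1 library per genotype.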

How the results depend on the processing

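No paired analysis was possible because the deposited group means carry no replicate numbers, so recovered libraries cannot be tied to the numbers of the labels. Against 900 entries called by the authors' test, edgeR called 1437, edgeR with DESeq2 size factors 1435 and edgeR without a count filter 1375. For the members, 1 call became 3 with edgeR, under either scaling, with no filter and with limma-trend, and 4 with DESeq2. Calls in the gene lists of the pathways numbered 4, against 8 in the 3 edgeR fits and 7 with DESeq2 or limma-trend. Calls among the neighbours of Ring1 numbered 5, against 9 with edgeR, 10 with DESeq2 and 8 in the remaining fits. Leaving out 1 library in edgeR gave 566 to 3276 calls over all entries, 0 to 5 among members, 3 to 14 in the lists and 2 to 19 among the neighbours, with the lowest counts when a WT library was left out. The single library of the reduced genotype is then assumed to vary like the other genotype.

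Cd74, at -0.04 in the authors' deposited table, was positive in every other fit: 0.13 with edgeR, 0.12 with DESeq2, limma-trend and the other size factors, 0.10 without a filter, and between 0.059 and 0.21 with 1 library left out. With 1 library left out, Psmb9 ranged from -0.17 to 0.15, positive without RingKO library A (0.037) or WT library A, and B2m from -0.077 to 0.027, positive without RingKO library A (0.0049) or WT library B. Ciita was -0.16 without a filter, and its other listed entry, with 0 and 0 reads in RingKO and 1 and 1 in WT, gives no fold. None of these sign changes passed a test. In the Bcat pair a 1.5-fold limit called 6 members in place of 3, and TMM scaling, which moves all log2 ratios by -0.22, called 4, adding Psmb9 at 0.488, and put B2m at 0.246 and H2-Ab1 at 0.532. Against the mean of all constitutive beta subunits, Psmb8 was 1.70 times as high in RingKO as in WT in place of 1.91, and Psmb9 0.985 in place of 0.886. Depth limits Ciita, Tap1 and the Bcat library.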
